A study of Homo sapiens with 18 samples.

Results

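The enzymes described here are 10 proteins of glycolysis, chosen by name: HK1, HK2, GPI, PFKL, PFKP, ALDOA, GAPDH, PGK1, ENO1 and LDHA. Of these 10 genes, 9 have a row among the 13141 genes of the expression table. HK1 has none, so only its upstream sequence was examined here. The samples were 18 Illumina HumanHT-12 V4 arrays hybridized with RNA from 786-O, a human clear cell renal cell carcinoma line that lacks functional VHL and is known to express HIF2α but no functional HIF1α. They form 6 groups of 3 arrays: VHL-/- SCR, VHL-/- PBRM1 shRNA, VHL-/- KDM5C shRNA, VHL+/+ SCR, VHL+/+ PBRM1 shRNA and VHL+/+ KDM5C shRNA, where VHL+/+ cells are 786-O cells in which VHL was put back and SCR is the scramble control shRNA. Every group was stably infected, the SCR controls included, and none received a further treatment. Each target was addressed with a single shRNA sequence in this 1 line, and PBRM1 (a subunit of the SWI/SNF chromatin remodeller) and KDM5C (a histone H3 lysine demethylase) are both tumor suppressors in this cancer. A tag of the labels spelled ChIP, with a value of 1 for replicates 1 and 2 of each group and of 2 for replicate 3, was read as the array chip; this reading is an interpretation. The labels do not say that the replicates were separate cultures, so the p-values measure the spread between these arrays, which may be technical.

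Glycolysis splits glucose into pyruvate, and LDHA then turns pyruvate into lactate. The genes of many of these enzymes are classical targets of hypoxia-inducible factor (HIF), whose α subunits pVHL marks for destruction, and in many cell types their hypoxic induction depends on HIF1α rather than on HIF2α. The question put to these arrays was whether VHL lowers the enzymes in a line that relies on HIF2α. HIF1A has no row in the table used here, so its absence could not be checked.

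HIF binds DNA at a short core, often ACGTG, which on the opposite strand reads CACGT. Only these letters were searched for, and other forms of the core were not. The upstream sequences of 4 enzymes are shown because they carry this core and lie before enzymes that behaved differently on the arrays: LDHA and ALDOA, which were lower in VHL+/+ cells, PGK1, which lay at the edge of the threshold, and GAPDH, which showed no detectable change. Each is the 250 bases before a RefSeq transcript start on GRCh38.p14, read 5′ to 3′ on the plus strand, which is the gene's own strand, with the core in capitals on either strand.
LDHA, chr11:18394313-18394562: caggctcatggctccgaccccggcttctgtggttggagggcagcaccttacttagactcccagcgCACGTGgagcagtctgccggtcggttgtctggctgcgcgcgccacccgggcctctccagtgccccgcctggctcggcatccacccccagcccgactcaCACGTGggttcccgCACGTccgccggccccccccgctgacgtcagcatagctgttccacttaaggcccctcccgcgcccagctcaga
ALDOA, chr16:30064029-30064278: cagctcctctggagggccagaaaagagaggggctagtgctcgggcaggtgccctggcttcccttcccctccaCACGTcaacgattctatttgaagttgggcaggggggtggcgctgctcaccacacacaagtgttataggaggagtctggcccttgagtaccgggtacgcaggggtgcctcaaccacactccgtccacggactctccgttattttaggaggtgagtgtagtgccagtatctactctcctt
PGK1, chrX:78103998-78104247: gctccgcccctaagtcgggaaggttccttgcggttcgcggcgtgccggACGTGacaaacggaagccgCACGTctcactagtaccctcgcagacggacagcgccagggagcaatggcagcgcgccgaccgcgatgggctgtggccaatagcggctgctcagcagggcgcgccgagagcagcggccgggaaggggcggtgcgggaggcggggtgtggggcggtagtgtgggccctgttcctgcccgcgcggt
GAPDH, chr12:6535014-6535263: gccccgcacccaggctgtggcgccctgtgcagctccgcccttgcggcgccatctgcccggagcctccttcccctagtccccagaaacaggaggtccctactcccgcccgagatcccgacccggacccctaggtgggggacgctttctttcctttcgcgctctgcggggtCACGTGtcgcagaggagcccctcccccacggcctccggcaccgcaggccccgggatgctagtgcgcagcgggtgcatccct
The LDHA stretch holds 5 matches to the core, of which 4 belong to a pair of palindromes CACGTG counted once on each strand. PGK1 has 2 matches, and so has GAPDH, where both belong to a single palindrome. ALDOA has 1 match in the stretch shown, and each of its 3 windows holds at least 1. Among the 10 enzymes, 7 have ACGTG on either strand in at least 1 window, namely HK2, GPI, PFKP, ALDOA, GAPDH, PGK1 and LDHA. The windows of HK1, PFKL and ENO1 hold no match to these letters, and other forms of the core were not searched for. Over the windows of equal length of all genes, 18.5% of 35116 held the core, against 10 of the 23 windows of the 10 enzymes. By gene, the share was 21.7% of 27305 genes. Among genes with a row in the expression table it was 28.2% of 8496 genes and 21.8% of 12357 windows. The enzymes have 2.3 windows each on average and all genes 1.29, which raises the enzymes' share by gene. A match of letters is a description and does not show a bound site.

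Averaged over the 3 shRNA conditions, 3 of the 9 measured enzymes were lower in VHL+/+ than in VHL-/- cells and none was higher, also at an unadjusted p under 0.05. PFKP, the platelet-type phosphofructokinase that commits sugar to glycolysis, fell to 0.741 of its VHL-/- level. ALDOA, the aldolase that splits fructose bisphosphate, fell to 0.742, and LDHA fell to 0.800. In the fit over all genes with limma, 6.17% of the 13141 genes were called lower and 6.03% higher at adjusted p under 0.05. The log2 change was below 0 for 8 of the 9 enzymes, with a median of -0.15, whereas it was below 0 for 48.6% of all genes, with a median of 0.0029. All 3 changes were smaller than 1.5-fold, and with that fold as an added threshold none of the enzymes would be called. On chip 2 alone, in a fit of VHL and shRNA condition to its 6 arrays that was added after the data were seen, PFKP at -0.59, ALDOA at -0.45 and LDHA at -0.31 had the same direction, but 0 of the 9 enzymes was called (limma, adjusted p = 0.0962, 0.0940 and 0.280) and 39 of all genes were called lower; these 3 had an unadjusted p under 0.05. GAPDH, ENO1 and LDHA lie above the 99th percentile of mean signal in this table, close to the top of a range that runs from 6.27 to 14.66 on the log2 scale.

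**Figure D1:**
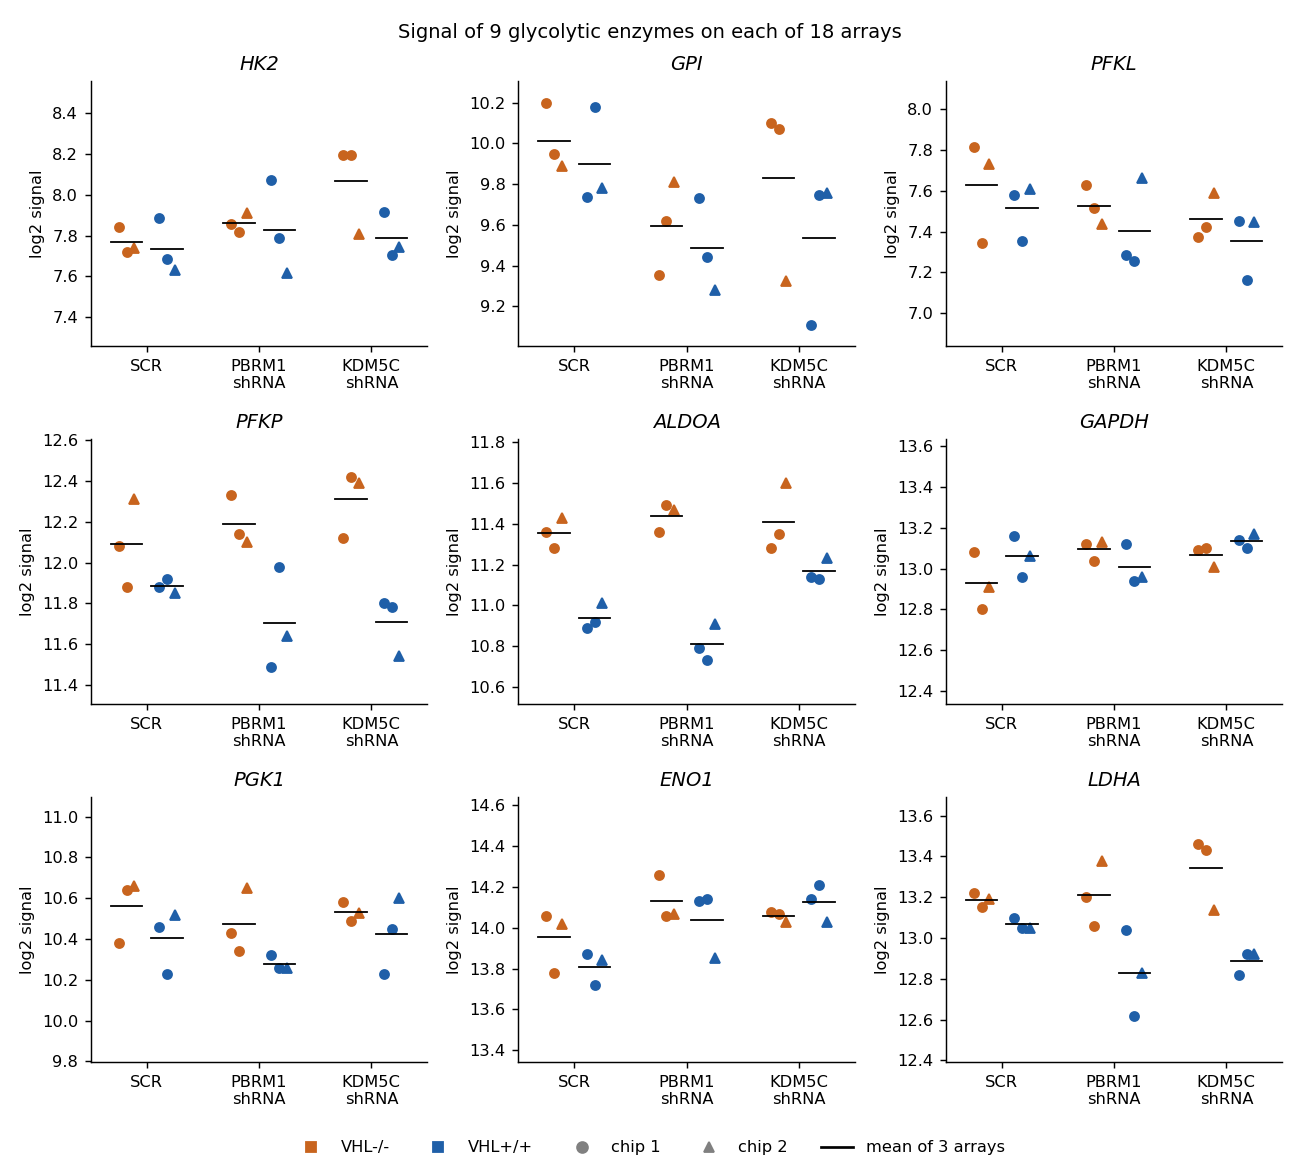
Log2 signal of the 9 measured enzymes on each of the 18 arrays, by shRNA condition, with VHL-/- arrays in orange and VHL+/+ arrays in blue, chip 1 as circles, chip 2 as triangles and a bar for the mean of 3 arrays. Every panel spans the same log2 range, and ALDOA is the enzyme whose 9 VHL+/+ arrays all lie below its 9 VHL-/- arrays.

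ALDOA was the enzyme that separated the backgrounds most cleanly. With SCR its log2 signal was 11.36, 11.28 and 11.43 in VHL-/- cells and 10.89, 10.92 and 11.01 in VHL+/+ cells. With PBRM1 shRNA it was 11.36, 11.49 and 11.47 in VHL-/- and 10.79, 10.73 and 10.91 in VHL+/+ cells. With KDM5C shRNA it was 11.28, 11.35 and 11.60 in VHL-/- and 11.14, 11.13 and 11.23 in VHL+/+ cells. All 9 VHL+/+ arrays thus lay below all 9 VHL-/- arrays, which held for 0.609% of all genes in this direction. The change was -0.43 ± 0.037 on the log2 scale (SE; limma, adjusted p = 1.099e-06), and its 95% confidence limits were -0.51 and -0.35. An exact two-sided permutation of the VHL labels within shRNA condition and chip gave p = 0.001157, the smallest that its 1728 relabellings allow. This permutation p and those given below for other enzymes are not adjusted for the number of genes. ALDOA was also the only enzyme called different between the chips, by 0.13 on the log2 scale (limma, adjusted p = 0.0237). HK2, PFKL and PGK1 had chip differences of -0.15, 0.15 and 0.14 that were not called. The VHL effect of ALDOA was -0.42 on chip 1 and -0.45 on chip 2.

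LDHA followed closely. With SCR its log2 signal was 13.22, 13.15 and 13.19 in VHL-/- against 13.10, 13.05 and 13.05 in VHL+/+ cells. With PBRM1 shRNA the values were 13.20, 13.06 and 13.38 in VHL-/- and 13.04, 12.62 and 12.83 in VHL+/+ cells. With KDM5C shRNA they were 13.46, 13.43 and 13.14 in VHL-/- and 12.82, 12.92 and 12.92 in VHL+/+ cells. Within each condition the 2 backgrounds did not overlap, and over all conditions 8 of the 9 VHL+/+ arrays lay below every VHL-/- array. The change was -0.32 ± 0.062 (log2, SE; limma, adjusted p = 0.002263), and the exact permutation test again gave p = 0.001157.

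PFKP varied more between replicates. With SCR its log2 signal was 12.08, 11.88 and 12.31 in VHL-/- and 11.88, 11.92 and 11.85 in VHL+/+ cells, so that the backgrounds overlapped. With PBRM1 shRNA it was 12.33, 12.14 and 12.10 in VHL-/- and 11.49, 11.98 and 11.64 in VHL+/+ cells. With KDM5C shRNA it was 12.12, 12.42 and 12.39 in VHL-/- and 11.80, 11.78 and 11.54 in VHL+/+ cells. In the conditions with an shRNA the backgrounds were apart. The averaged change was -0.43 ± 0.075 (log2, SE; limma, adjusted p = 0.001032), and the exact permutation p was 0.003472. PFKL, the liver-type phosphofructokinase, had a value of -0.12 ± 0.069 (limma, adjusted p = 0.333). Its mean signal was 7.48, against 11.98 for PFKP, and whether the changes of PFKL and PFKP differ was not tested.

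The other enzymes did not pass the test. PGK1, which makes the first ATP of the pathway, came nearest, at -0.15 ± 0.054 (log2, SE; limma, adjusted p = 0.0865), with 95% limits of -0.27 and -0.04. Its VHL-/- arrays ran from 10.34 to 10.66 with a median of 10.53, and its VHL+/+ arrays from 10.23 to 10.60 with a median of 10.32, so that the ranges overlapped. The exact permutation p of PGK1, not adjusted for the number of genes, was 0.0243. HK2, the hexokinase that traps glucose in the cell, ran from 7.72 to 8.20 in VHL-/- and from 7.62 to 8.07 in VHL+/+ cells, and its change of -0.12 had limits of -0.24 and 0.0099. GPI, the isomerase that follows, was the least precise of the 9: its arrays ran from 9.33 to 10.20 in VHL-/- and from 9.11 to 10.18 in VHL+/+ cells, and its change of -0.17 had limits of -0.42 and 0.081.

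GAPDH and ENO1, the dehydrogenase and the enolase of the later steps of glycolysis, were the enzymes with the narrowest bounds around 0. GAPDH ran from 12.80 to 13.13 in VHL-/- and from 12.94 to 13.17 in VHL+/+ cells, and its change of 0.04 had 95% limits of -0.06 and 0.13 (log2; limma, adjusted p = 0.703). ENO1 ran from 13.78 to 14.26 in VHL-/- and from 13.72 to 14.21 in VHL+/+ cells, and its change of -0.05 had limits of -0.16 and 0.058 (limma, adjusted p = 0.612). A fall of the size seen for ALDOA lies outside the limits of both. Their signals stand near the top of the scale, and whether the arrays respond in proportion there was not tested.

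**Figure D2:**
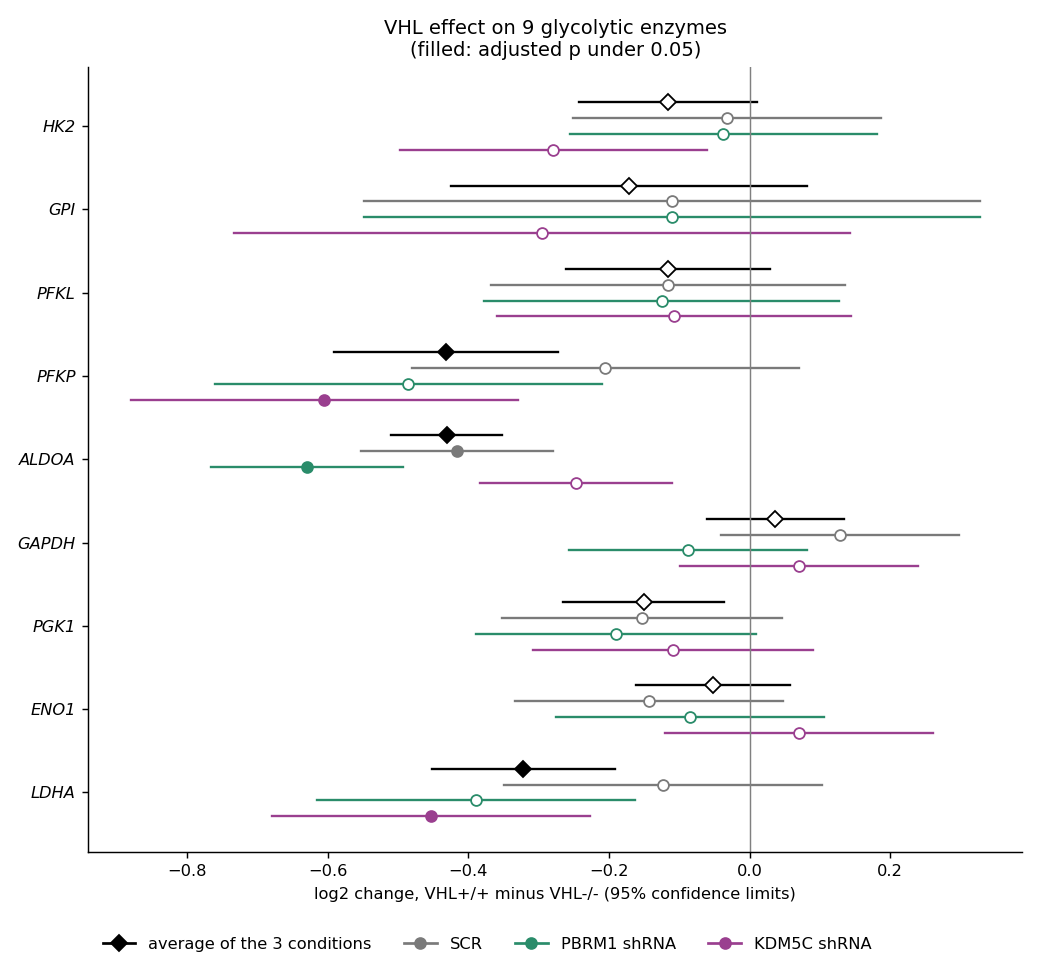
Log2 change from VHL-/- to VHL+/+ cells for the 9 enzymes, averaged over the 3 conditions (diamonds) and within SCR, PBRM1 shRNA and KDM5C shRNA cells (circles), with lines for the 95% confidence limits and filled symbols for adjusted p under 0.05. PFKP, ALDOA and LDHA are filled for the average, at -0.43, -0.43 and -0.32.

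Taken condition by condition, the 3 VHL comparisons share no arrays. No separate re-expression of VHL is described for each shRNA condition, so they are not taken as independent tests of VHL. The same limit holds for their average. In SCR cells only ALDOA was called lower, at -0.42 ± 0.065 (log2, SE; limma, adjusted p = 0.001982), where 1.89% of all genes were called lower. LDHA was -0.12 and PFKP -0.21 there, and neither passed. In PBRM1 shRNA cells ALDOA was called at -0.63 ± 0.065 (limma, adjusted p = 3.398e-05), against 1.16% of all genes. PFKP at -0.49 (limma, adjusted p = 0.0638) and LDHA at -0.39 (limma, adjusted p = 0.0712) fell short of the threshold. In KDM5C shRNA cells PFKP at -0.61 ± 0.13 (limma, adjusted p = 0.0174) and LDHA at -0.45 ± 0.11 (limma, adjusted p = 0.0298) were called, against 1.56% of all genes, and ALDOA at -0.25 stood at adjusted p = 0.0518 (limma). Both calls in KDM5C shRNA cells were lost with only the 6 arrays of that comparison, at 0.111 and 0.140, and each was lost without single arrays. LDHA lost its call without VHL+/+ KDM5C shRNA replicate 1, 2 or 3, with adjusted p-values of 0.117, 0.0737 and 0.0830, and without VHL-/- KDM5C shRNA replicate 1 or 2, at 0.122 and 0.107. PFKP lost it without VHL+/+ KDM5C shRNA replicate 3, at 0.110, and without VHL-/- KDM5C shRNA replicate 2 or 3, at 0.0702 and 0.0601 (limma in each case).

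Counted by arrays that did not overlap, as deposited, 2 enzymes were lower in VHL+/+ SCR cells (ALDOA and LDHA), where 8.46% of all genes were. With PBRM1 shRNA they were 4 (PFKP, ALDOA, PGK1 and LDHA), against 6.59% of genes, and with KDM5C shRNA 3 (PFKP, ALDOA and LDHA), against 6.45%. No enzyme was higher without overlap in any condition. Of all genes, 8.42% were with SCR, 6.95% with PBRM1 shRNA and 5.98% with KDM5C shRNA. At such shares a count of 0 among 9 does not set the enzymes apart. The VHL effect itself did not differ between an shRNA condition and SCR for any enzyme by the interaction term, nor did it for any of the 13141 genes at adjusted p under 0.05 in limma, although 553 genes for PBRM1 shRNA and 1014 for KDM5C shRNA had an unadjusted p under 0.05, 1 and 2 of the enzymes among them. The widest point differences were those of PFKP and LDHA with KDM5C shRNA, at -0.40 (95% limits -0.79 and -0.01) and -0.33 (-0.65 and -0.01), with adjusted p-values of 0.637 and 0.634 (limma). That of ALDOA was -0.21 with PBRM1 shRNA and 0.17 with KDM5C shRNA.

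The isozymes that replace these enzymes at the same step gave a mixed picture. A list of 21 further glycolytic genes had 14 rows, of which 2 were lower and 3 higher in VHL+/+ cells, with a median of -0.0083. ENO2, the neuronal enolase, fell by 1.10 on the log2 scale, to 0.468 of its VHL-/- level (limma, adjusted p = 5.606e-08). Its arrays ran from 7.94 to 8.83 in VHL-/- and from 7.07 to 7.53 in VHL+/+ cells, with no overlap. The VHL+/+ values lie below the table's median of 7.65, so the size of the fall is uncertain. PKM2, the row that stands for the pyruvate kinase gene PKM under its older symbol, fell by 0.25 (limma, adjusted p = 0.0329). On the other side PFKM, the muscle phosphofructokinase, rose by 0.38 ± 0.068 (limma, adjusted p = 0.00137), LDHB, the lactate dehydrogenase subunit that favours the pyruvate direction, rose by 0.39 ± 0.090 (limma, adjusted p = 0.00815) and HKDC1, a hexokinase relative, rose by 0.40 ± 0.082 (limma, adjusted p = 0.00355). TPI1 at -0.05 and PGAM1 at -0.15 did not pass.

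Isozymes of the same step therefore had changes of opposite sign in 2 families where both members were called: PFKP with PFKM, and LDHA with LDHB. Within an array, the log2 difference of LDHA over LDHB was 0.99 ± 0.30 in VHL-/- (SD, n = 9) and 0.28 ± 0.15 in VHL+/+ arrays, and the backgrounds did not overlap, with a lowest value of 0.53 in the first and a highest of 0.50 in the second. The difference of PFKP over PFKM was 3.08 ± 0.27 in VHL-/- and 2.27 ± 0.20 in VHL+/+ arrays, and its ranges overlapped. For ENO1 over ENO2 it moved the other way, by 1.04, with no overlap, since ENO2 fell while ENO1 showed no detectable change. These differences were chosen after the values of the single genes were known and are given as a description. Since each gene has its own probes, only the shift of such a difference between backgrounds can be read, not its level.

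**Figure D3:**
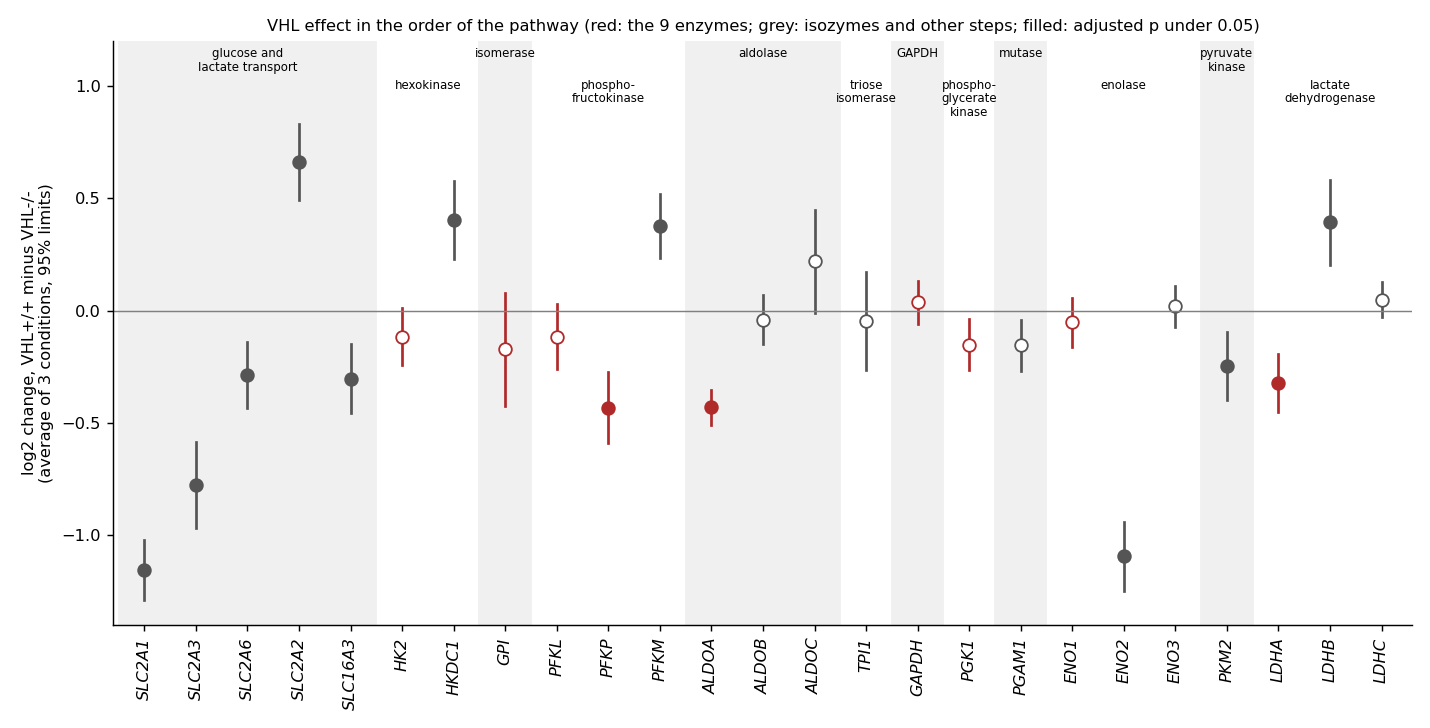
Log2 change from VHL-/- to VHL+/+ cells, averaged over the 3 conditions with 95% confidence limits, in the order of the pathway, with the 9 enzymes in red, isozymes and other steps in grey, and filled symbols for adjusted p under 0.05. The transporters drawn are those that were called; SLC2A1 at -1.16 and ENO2 at -1.10 are the lowest points, and PFKM, LDHB and HKDC1 lie above 0.

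The carriers that bring glucose in and take lactate out were partly lower as well. Of 15 listed transporters 10 had a row, of which 4 were lower and 1 higher in VHL+/+ cells, with a median of -0.12. SLC2A1, the glucose transporter GLUT1, had log2 signals from 11.83 to 12.42 in VHL-/- and from 10.66 to 11.06 in VHL+/+ arrays, with no overlap, and fell to 0.449 of its VHL-/- level (limma, adjusted p = 6.804e-09). SLC2A3, the transporter GLUT3, fell to 0.584 (limma, adjusted p = 2.311e-05). SLC16A3, which exports lactate, fell to 0.811, and SLC2A6 to 0.820. SLC2A2, the liver and tubule transporter GLUT2, was the one called higher (limma, adjusted p = 3.436e-05), at a signal of 6.51 to 6.77 in VHL-/- and 6.96 to 7.75 in VHL+/+ arrays. The VHL-/- values lie near the lowest signal of the table, and since detection on each array was not used here, no fold is given.

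Around the pathway, the counts stand against 6.17% of all genes called lower and 6.03% called higher. Of the 4 measured regulators, PFKFB4, which makes the activator of phosphofructokinase, fell by 0.39 (limma, adjusted p = 0.00129), while PFKFB3 at 0.14 did not pass. Of 14 genes for the fate of pyruvate none was lower (1 at an unadjusted p under 0.05) and 2 were higher: BRP44, the older symbol of the mitochondrial pyruvate carrier MPC2, rose by 0.36 (limma, adjusted p = 0.000881) and PDK4, a kinase that inhibits pyruvate dehydrogenase, rose by 0.16 (limma, adjusted p = 0.0445). PDK4 had a low signal, with means of 6.91 in VHL-/- and 7.06 in VHL+/+ arrays, at the 29.15th percentile of mean signal. Detection on each array was not used here, so the size of its rise is uncertain. Of 10 genes of glycogen metabolism 1 was called, the phosphorylase PYGL, which fell by 0.48 (limma, adjusted p = 2.47e-05). None of 8 genes of the pentose phosphate pathway and none of 5 of gluconeogenesis was called in either direction by limma, nor did any of these have an unadjusted p under 0.05.

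The HIF pathway itself served as the check of the labels. The row of VHL did not differ between VHL+/+ and VHL-/- arrays (0.08 ± 0.050 on the log2 scale; limma, adjusted p = 0.394), and the row of PBRM1 was not lower on the arrays labelled PBRM1 shRNA (-0.06 ± 0.12 in VHL-/- and -0.15 ± 0.12 in VHL+/+ cells), with a signal below the median of the table. The PBRM1 knockdown was therefore not seen in its own row (limma, adjusted p = 0.864 and 0.639). KDM5C has no row and its knockdown could not be checked, so the shRNA groups are named as labelled. By contrast, of 21 measured HIF targets outside glycolysis 17 were lower in VHL+/+ cells, and all 21 values were below 0, with a median of -0.55. Among them were ADM, the vasodilator peptide adrenomedullin, at 0.263 of the VHL-/- level, NDRG1 at 0.264 and CCND1, the cyclin D1 gene known to respond to HIF2α in renal carcinoma, at 0.323. EGLN3, a HIF prolyl hydroxylase, fell to 0.518. In VHL+/+ arrays its signal ran from 6.81 to 7.06, near the low end of the table, so the size of its fall is uncertain. BNIP3, a mitophagy gene often given as a HIF1α target, was at -0.05 ± 0.099 (limma, adjusted p = 0.829). Its relative BNIP3L had a mean of 8.60 in VHL-/- and 8.09 in VHL+/+ arrays, and DDIT4 had means of 11.44 and 10.42. Whether HIF1α targets as a group differ from HIF2α targets was not tested. The rows of EPAS1, the gene of HIF2α, at 0.25 and of its partner ARNT at 0.06 did not pass. Of the kidney epithelial markers reported here, VIM at 13.94, CDH2 at 12.3, KRT8 at 9.84, CDH6 at 9.83 and PAX8 at 8.50 lay above the table's median of 7.65 on average, and LHX1 at 7.37 and KRT18 at 7.31 lay below it, while the defining markers of T and B cells, endothelium and hepatocytes that have a row (CD2, MS4A1, PECAM1 and ALB) lay between 6.70 and 7.02, at or below the 30.5th percentile of the table. Of the 3 macrophage markers, CD68 at 8.57 and CSF1R at 6.99 were lower in VHL+/+ cells by 0.23 each, and LYZ was not called. CSF1R lay at the 29.26th percentile of mean signal, where the size of a change is uncertain. Of 8 kidney markers 3 were higher in VHL+/+ cells and 1 was lower, CDH6 by most (1.01). The part of these shifts in the enzymes' changes was not tested.

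No glycolytic enzyme passed the threshold with either shRNA, and at the shares of all genes given below this does not set the enzymes apart. With PBRM1 shRNA, 0 of 9 were called in VHL-/- cells, where 5.43% of all genes were called in either direction, and 0 of 9 in VHL+/+ cells, where 2.49% were. With KDM5C shRNA it was 0 of 9 in VHL-/- cells, against 4.78%, and 0 of 9 in VHL+/+ cells, against 4.19% (limma). At an unadjusted p under 0.05 the counts were 0, 2, 1 and 2 in the same order. Within a background both shRNAs were set against the same 3 SCR arrays. The nearest were ENO1 and ALDOA with KDM5C shRNA in VHL+/+ cells. ENO1 read 13.87, 13.72 and 13.84 with SCR and 14.14, 14.21 and 14.03 with KDM5C shRNA, a difference of 0.32 ± 0.090 (log2, SE; limma, adjusted p = 0.0595). ALDOA was higher there by 0.22 ± 0.065 (limma, adjusted p = 0.0633). With PBRM1 shRNA in the same background ENO1 differed by 0.23 and ALDOA by -0.13.

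GPI had the widest point differences of the 9 with PBRM1 shRNA, at -0.42 in VHL-/- and -0.42 in VHL+/+ cells, and with 95% limits of -0.85 and 0.022 in both. The 3 GPI arrays of VHL-/- KDM5C shRNA read 10.10, 10.07 and 9.33, and the 3 of VHL+/+ KDM5C shRNA read 9.11, 9.75 and 9.76, so that the replicates of a group differed more than the groups did. HK2 differed by 0.30 ± 0.10 with KDM5C shRNA in VHL-/- cells (limma, adjusted p = 0.117), where its arrays read 8.20, 8.20 and 7.81 against 7.84, 7.72 and 7.74 on SCR arrays. For PGK1 all 4 shRNA differences lay between -0.12 and 0.02.

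**Figure D4:**
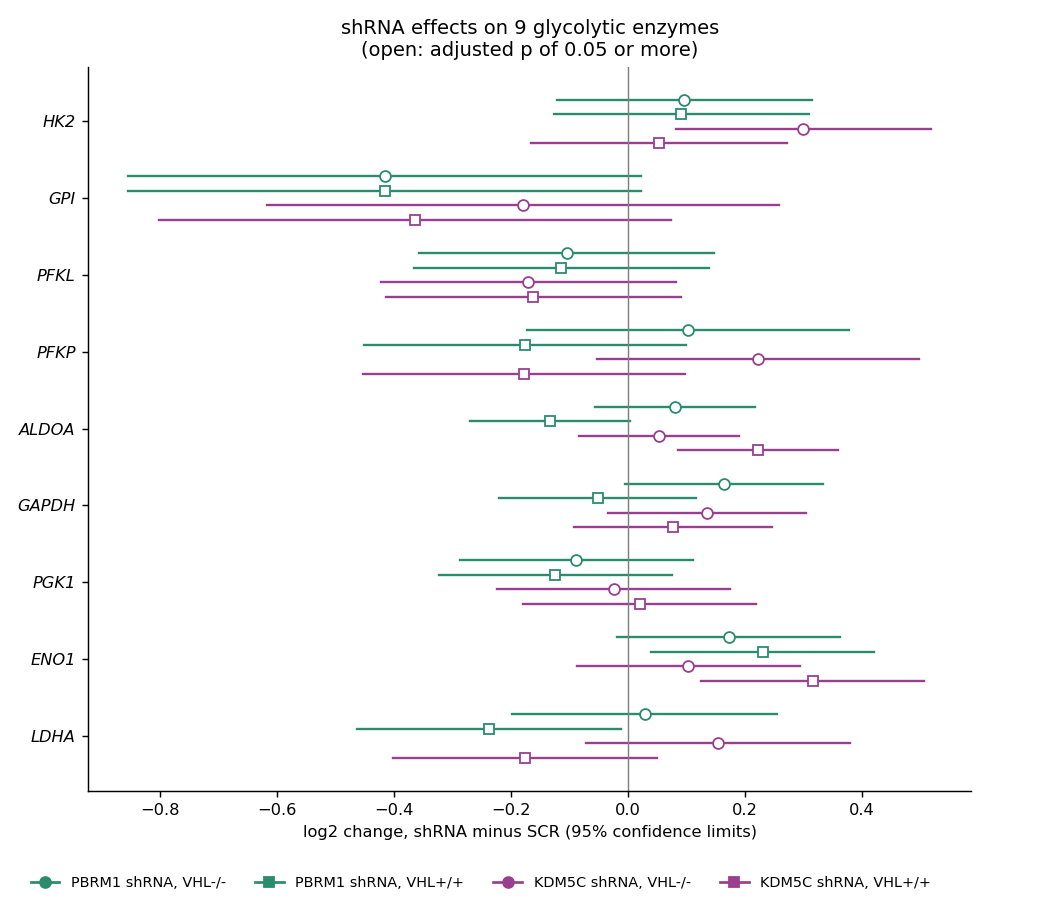
Log2 change from SCR to shRNA for the 9 enzymes, for PBRM1 shRNA (green) and KDM5C shRNA (purple) in VHL-/- cells (circles) and VHL+/+ cells (squares), with lines for the 95% confidence limits. Every symbol is open, since no adjusted p was under 0.05; ENO1 with KDM5C shRNA in VHL+/+ cells is the highest at 0.32, and GPI has the lowest values, down to -0.42.

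Taken as 1 value per array, the mean of the 9 enzymes, each centred on its own mean, was 0.07 ± 0.090 in VHL-/- SCR, 0.08 ± 0.047 in VHL-/- PBRM1 shRNA and 0.14 ± 0.068 in VHL-/- KDM5C shRNA cells (log2, SD, n = 3). In VHL+/+ cells it was -0.06 ± 0.031 with SCR, -0.16 ± 0.059 with PBRM1 shRNA and -0.08 ± 0.037 with KDM5C shRNA. The difference between the backgrounds was -0.20, and it was -0.22 when GAPDH, ENO1 and ALDOA were left out. The called enzymes PFKP and LDHA are part of both means, so neither value gives the change of the uncalled enzymes alone. Among the 36 pairs of enzymes 28 had a Pearson correlation above 0 over the 18 arrays after removal of the chip, with a median of 0.28. The closest pair was PFKP with ALDOA at 0.72, which shares the VHL effect; with the group means removed as well, it was 0.13. With group means removed, 21 of the 36 pairs were above 0, with a median of 0.12, and pairs of enzymes that share the VHL effect turned negative: ALDOA with LDHA went from 0.65 to -0.46 and PFKP with LDHA from 0.59 to -0.52. Outside the lists, the genes whose pattern lay closest to the mean of the enzymes over the 18 arrays were XAGE1A at 0.92, E2F7 at 0.90, and TNFAIP6, LEF1 and CD83 at 0.89 each. All 5 were lower in VHL+/+ cells, from XAGE1A at -1.60 to LEF1 at -0.35 on the log2 scale. They were picked for following the enzymes' mean, which was itself lower in VHL+/+ cells, so this direction follows from the choice.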

How the data were processed

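RNA of 6 groups was hybridized to 18 Illumina HumanHT-12 V4 arrays. The table deposited by the authors gives log2 intensities per gene, made in GenomeStudio and limma with a force-positive background correction, log2 transformation, quantile normalization, a filter for present probes at a detection level of 0.05 and averaging over a gene's probes, and with no array removed. Quantile normalization gives the arrays one distribution, so changes are relative to the other genes of an array. The number of arrays limits the precision. No column of the authors' own comparisons was used.

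Symbols were compared with RefSeq: of 13141, 10680 equal a current symbol, a further 1348 a synonym and 1113 neither. Limma 3.58.1 in R 4.3.3 was fitted to the 18 arrays on group and chip, with 11 residual degrees of freedom, and Benjamini-Hochberg adjustment ran over all genes of a comparison. Genes were called at adjusted p under 0.05 with no fold threshold. The chip mattered for 3130 genes. The fit was tested on simulated data. Tables were made with Python 3.11.15, pandas 2.3.3 and numpy 2.4.6.

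Members, lists and tests were chosen with earlier results of these data known. Named are every enzyme with a row, PKM, TPI1, PGAM1, PFKM, SLC2A1, EPAS1, ARNT and VHL, up to 6 called genes per list and the 5 genes closest to the enzymes' mean; other genes named were chosen after their values were seen. Protein sequences were not used here. One kidney marker is not reported here by name.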

Additional observations from a re-analysis of the deposited data

How the results depend on the processing

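The count of enzymes called lower averaged over the conditions was 3 when the chip term was dropped or exchanged for a replicate block, with the 0.25 of genes of lowest signal left out, arrays centred on their median, cyclic loess, trend and robust moderation and chip 1 alone, and 3 without any 1 of the 18 arrays. A fold of at least 1.5 left 0 for the average, 0 in SCR, 1 in PBRM1 shRNA and 1 in KDM5C shRNA cells, and a fold of at least 2 left 0 in each. In KDM5C shRNA cells the count of 2 became 1 with no chip term, 0 with only the arrays of the contrast and 1 on chip 1 alone, and between 0 and 3 with an array left out. ALDOA gained a call there without VHL-/- PBRM1 shRNA replicate 2 or 3 (limma, adjusted p = 0.0442 and 0.0489) or VHL-/- KDM5C shRNA replicate 1 (0.0473). In PBRM1 shRNA cells the count was 1 to 2 with an array left out: LDHA was called without VHL+/+ PBRM1 shRNA replicate 1 (limma, adjusted p = 0.0230) or VHL-/- KDM5C shRNA replicate 3 (0.0355), and PFKP without VHL+/+ PBRM1 shRNA replicate 2 (0.0192), VHL-/- SCR replicate 3 (0.0434) or VHL-/- KDM5C shRNA replicate 1 (0.0498). In SCR cells it was 1 in every tested setting without a fold threshold. The count for KDM5C shRNA in VHL+/+ cells was 0 to 1 with an array left out: ENO1 was called without VHL+/+ PBRM1 shRNA replicate 3 or VHL-/- SCR replicate 2, and ALDOA without VHL-/- KDM5C shRNA replicate 3. The causes were not tested, apart from the fold thresholds, which drop changes below them. Chip 2 holds 1 array per group, which leaves the fit of 6 groups no residual degrees of freedom; the additive fit of VHL and shRNA to chip 2 alone, chosen after seeing the data, has 2 and gave a count of 0 for the average. The replicate block kept the counts at 3, 1, 1 and 2. Deviations of same-numbered arrays correlated from -0.17 to 0.72, with medians of 0.15, 0.28 and 0.52 for numbers 1, 2 and 3, and 12 of 18 arrays lay closest to their own number; not every pair was above 0.1, so the numbers were not taken to pair the arrays. No called enzyme changed sign under any alternative.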
